A study of Mus musculus with 14 samples.

Results

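Microtubules and intermediate filaments give cochlear supporting cells (SCs) their shape, and the genes for both systems were followed here across age and Notch inhibition. The list held 34 genes, of which 13 encode tubulins, 10 encode microtubule-associated proteins (MAPs) or stathmins, and 11 encode intermediate filament proteins. Members were taken by gene symbol from the counts of both ages where 10 or more reads were counted in at least 3 libraries. All 34 listed genes met this rule, out of 35976 genes in the count tables.

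RNA was sequenced in bulk from fluorescent SCs sorted out of cochlear explants of Lfng-EGFP mice, whose reporter follows the Lfng gene. Explants were kept for 24 h with 2 μM compound E (CompE), which blocks Notch signalling by inhibiting γ-secretase, or with its solvent DMSO. The groups were P0 CompE (4 libraries), P0 DMSO (4), P6 CompE (3) and P6 DMSO (3), all with the genotype Lfng-EGFP. The 2 treatments of a replicate number were taken as a pair, which was inferred from the values of these libraries. Several cochleae were pooled per tube, and nothing in the labels ties a library to an animal, so p-values measure the spread between these libraries.

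Microtubules are polymers of α- and β-tubulin dimers that are nucleated with γ-tubulin, stabilized by MAPs and destabilized by stathmins. In the organ of Corti, pillar cells and Deiters' cells are SCs known for dense microtubule bundles that run from their base to the surface of the epithelium. Intermediate filaments are nonpolar ropes built of keratin pairs in epithelia, of vimentin, desmin or glial fibrillary acidic protein in other cells, and of neurofilament subunits in neurons. Keratins 8 and 18 form such a pair, and hair cells (HCs) are known to hold fewer intermediate filaments than the SCs around them.

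Totals ranged from 19415066 to 44430063 counts per library, so counting error was small for members above 10 RPM (reads scaled to a library total of 1000000). The 10 SC marker genes were detected throughout, and their summed level was 7490 to 12400 RPM in P0 DMSO and 5510 to 6440 RPM in P0 CompE libraries. It was 3280 to 7220 RPM in P6 DMSO and 2030 to 4540 RPM in P6 CompE libraries. That sum includes Notch target genes such as Hes5, and Lfng itself, the gene behind the sorting reporter, was at 1140 to 3680 RPM in P0 DMSO and 756 to 1140 RPM in P0 CompE libraries. The summed level of 12 HC markers was 621 to 1410 RPM in P0 DMSO and 1200 to 2260 RPM in P0 CompE libraries. In bulk samples, fewer cells of a type and less RNA per cell cannot be told apart. Replicate 3 stood apart at P6, with summed mesenchyme markers at 4170 RPM in DMSO and 3470 RPM in CompE, against 928 to 2490 RPM in the other P6 libraries. P0 and P6 libraries came from different batches, so age and batch cannot be told apart.

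Several members are close copies of each other, which limits how far reads of one can be told from reads of another. Over the coding sequence, Tuba1a and Tuba1b were identical at 98.3% of bases, Tuba1b and Tuba1c at 98.1%, and Tubb2a and Tubb2b at 96.5%. Of all stretches of 75 bases in the exons, 70.4% for Tuba1a, 70% for Tuba1b, 48.9% for Tuba1c, 43.2% for Tubb2a and 30.2% for Tubb2b also occurred in another annotated gene. The stretch below, coding bases 76 to 150, is shown because it reads the same in Tuba1a (GRCm38 chr15:98951545-98951619, minus strand), Tuba1b (chr15:98933049-98933123, minus strand) and Tuba1c (chr15:99034166-99034240, plus strand).
Tuba1a, Tuba1b and Tuba1c: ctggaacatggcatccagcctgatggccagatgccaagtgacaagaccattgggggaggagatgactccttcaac
The handling of reads that match several genes was not given in the sources used here, so values within these groups are uncertain between the copies. Tuba4a shares 33.4% of its stretches with Stk16, which overlaps it on the opposite strand, and Nefl (31.3%) and Nefm (18.1%) overlap each other in the same way, so without strand their reads there cannot be told apart. Tubb4b shares 29.9% with pseudogenes and with Fam166a, which overlaps it on the opposite strand. Krt8 shares 23.5% with the pseudogene Krt8-ps and with Gm36026, which overlaps it on the opposite strand, while Krt18, Krt19, Vim, Map1b, Tubb3 and Tubb5 share none.

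What sets tubulins apart most is the acidic tail at the end of the protein, where glutamates are the sites of polyglutamylation and where many MAPs and motors bind. The last 60 coding bases before the stop codon are shown for 3 β-tubulins whose levels at both ages are described further on, with the glutamate codons GAA and GAG in capitals.
Tubb4b (chr2:25222311-25222370, minus strand): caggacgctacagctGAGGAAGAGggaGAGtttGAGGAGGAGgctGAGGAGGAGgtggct
Tubb2b (chr13:34127474-34127533, minus strand): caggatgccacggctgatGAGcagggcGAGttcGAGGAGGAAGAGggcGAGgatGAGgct
Tubb3 (chr8:123421620-123421679, plus strand): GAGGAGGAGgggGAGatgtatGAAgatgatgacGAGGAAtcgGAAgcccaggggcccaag
Of the 20 codons in each tail, 10 were glutamate codons in Tubb4b and 8 in Tubb2b and Tubb3.

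Levels of different members were compared per length, as RPM per kilobase of merged exons (RPKM). The order across roles depended on this choice of length. Tuba1a, the α-tubulin of young neurons and many embryonic cells, was the most abundant member in all 4 groups, with 572 ± 80.1 RPKM (SD, n = 4) in P0 DMSO and 651 ± 202 (n = 3) in P6 DMSO libraries. In P0 DMSO libraries it was followed by Krt18 (205 ± 41.5) and Krt8 (95.0 ± 19.5), and the libraries of these 3 genes did not overlap. Tubb4b (67.1 ± 4.24), Tubb2b (64.0 ± 18.4), Tubb2a (61.8 ± 13.4) and Tuba1b (47.8 ± 7.48) came next, and each overlapped its neighbour in this order. Below them, with neighbours that overlapped throughout, were Tubb5 (34.2 ± 3.71), Map4 (23.9 ± 6.66), Tuba4a (19.2 ± 4.03) and Vim (18.9 ± 5.30). Tubb4a, Tubg1, Nefl, Map1b and Stmn1 lay between 9.25 and 12.1 RPKM. The other 18 members had means under 5 RPKM, down to Gfap at 0.0611 ± 0.0379.

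Within the MAPs, Map4, the MAP of nonneuronal cells, was ahead of Map1b (9.26 ± 0.963 RPKM) and Map2 (4.71 ± 1.73), while Mapt, Map6 and Map1a, which are best known from neurons, were at 0.734, 0.207 and 0.0827 RPKM. Within the stathmins, the widely expressed Stmn1 (9.25 ± 2.56) led, and the neuronal Stmn3, Stmn4 and Stmn2 were at 4.46, 0.959 and 0.362 RPKM. Tubb3, the β-tubulin used as a neuronal marker, was at 0.837 ± 0.271 RPKM. Of 11 other neuronal markers, 7 to 9 had 10 or more counts in P0 DMSO libraries, while the neuronal surface gene Thy1 had 0 counts in all 4.

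**Figure D1:**
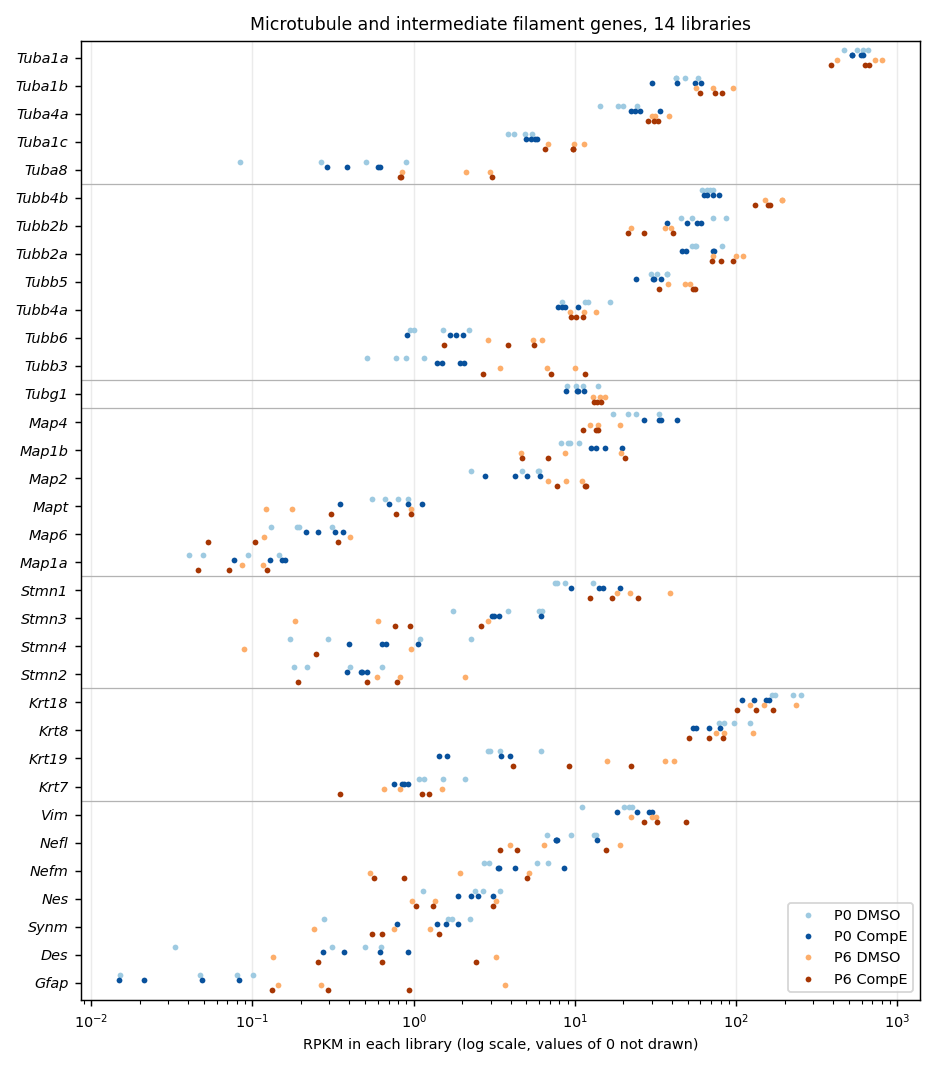
RPKM (log axis) of the 34 members, ordered by role and by P0 DMSO level, with a point for each of the 14 libraries coloured by group. Tuba1a lies above all other members in P0 DMSO libraries, and Tubb4b, Tubb3, Tubb6, Tuba8 and Krt19 have their P6 points to the right of most P0 points.

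The first comparison was of CompE with DMSO at P0, an age at which a small part of the SCs is known to turn into HCs when Notch is blocked. Of the 33 members tested (Gfap was too low), 0 were called, meaning a 2-fold change or more with an adjusted p no higher than 0.01, where 1.22% of all 15937 genes were called. At an adjusted p of at most 0.05 without a fold threshold 1 member passed, Map1b, against a background of 3.87%. With the replicate pairs as a block (the block below) 5 passed (Map1b, Map4, Tuba4a, Krt8 and Krt18), against a background of 7.5%. At P0, replicates 3 and 4 of both treatments shared a batch, and replicates 1 and 2 each had their own. The 4 pairs were therefore not from 4 separate batches. With a block for batch in place of the replicate block 4 passed (Map1b, Tuba4a, Tubb3 and Stmn1), against 7.34% of all genes. Map4, Krt8 and Krt18 did not pass with that block for batch. DESeq2 gave 0 members at the first threshold and 4 at the second (Map1b, Tubb3, Krt7 and Krt18), against 1.72% and 4.19% of genes. At an unadjusted p under 0.05 there were 8 members of 33 (24.2%), against 13.4% of all genes, and the median log2 fold change of the members was -0.05 against 0.01 over all genes.

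Map1b, which stabilizes microtubules in growing neurites, rose with CompE at P0. Its level was 167, 142.5, 130 and 147 RPM in the P0 DMSO libraries 1 to 4 and 309, 200, 216 and 243 RPM in the P0 CompE libraries of the same numbers. Every CompE library lay above every DMSO library, a state found in 5.13% of all genes tested. The log2 fold change was 0.68 ± 0.124 (SE), with an adjusted p of 0.0149 (edgeR), and it was 0.67 with an adjusted p of 0.0047 with the block. The call at 0.05 was lost without CompE replicate 4, without DMSO replicate 4, and without both libraries of replicate 2, 3 or 4. Log2 fold changes there were 0.67, 0.68, 0.75, 0.68 and 0.67. The call was also lost with all 14 libraries in one edgeR fit, with an adjusted p of 0.819.

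Map4, which binds along the microtubule lattice in most cell types, was higher with CompE in 4 of 4 pairs. It stood at 261, 360, 500 and 324 RPM in P0 DMSO and at 409, 519, 652 and 502 RPM in P0 CompE libraries. The groups overlapped, because replicate 3 was the highest and replicate 1 the lowest in both treatments. Its log2 fold change was 0.48 ± 0.231 with an adjusted p of 0.423, and 0.51 ± 0.0935 with an adjusted p of 0.0151 with the block. Map4 did not pass with a block for batch.

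The other 4 MAPs did not pass. Map2, which bundles dendritic microtubules, had means of 77.5 RPM in DMSO and 74.5 RPM in CompE libraries. Mapt, Map6 and Map1a had means between 1.01 and 5.86 RPM in both groups, and Map1a was higher with CompE in 4 of 4 pairs.

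Among the stathmins, Stmn1, which sequesters tubulin dimers, was higher with CompE in 4 of 4 pairs at P0. It stood at 25.0, 16.7, 14.9 and 14.5 RPM in DMSO and at 36.5, 18.2, 28.7 and 27.2 RPM in CompE libraries. The pair of replicate 2 differed little, and the groups overlapped. In edgeR, the log2 fold change was 0.60 ± 0.209, with an adjusted p of 0.201 and of 0.0627 with the block, and it passed at 0.05 with a block for batch. Stmn2, Stmn3 and Stmn4 had means of 1.33 to 5.07 RPM and did not pass.

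The α-tubulin that passed with the block was Tuba4a, an isotype whose gene encodes no tyrosine at its end. It stood at 89.3, 53.1, 73.6 and 68.5 RPM in P0 DMSO and at 124, 81.9, 94.2 and 87.0 RPM in P0 CompE libraries, higher in 4 of 4 pairs. The groups overlapped through DMSO replicate 1. The log2 fold change was 0.41 ± 0.151 with an adjusted p of 0.24, and 0.41 ± 0.0896 with an adjusted p of 0.0304 with the block. Tuba1a did not pass, with 1178, 1099, 1008 and 842 RPM in DMSO and 941, 1107, 1076 and 940 RPM in CompE libraries, and its log2 fold change was -0.06 ± 0.136. The summed RPKM of the 5 α-tubulins was 644 ± 78.0 in P0 DMSO and 643 ± 58.2 in P0 CompE libraries.

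Of the β-tubulins, 0 passed at P0 in edgeR with or without the replicate block, while Tubb3 passed in DESeq2 and with a block for batch. Tubb4a, an isotype of neurons and oligodendrocytes, was lower with CompE in 4 of 4 pairs, at 18.6 to 36.5 RPM in DMSO and 17.4 to 23.3 RPM in CompE libraries, with a log2 fold change of -0.49 ± 0.172 and an adjusted p of 0.209. Tubb3 stood at 1.67, 2.18, 1.46 and 0.953 RPM in DMSO and at 3.65, 3.81, 2.62 and 2.81 RPM in CompE libraries. Its groups did not overlap, and the log2 fold change of 0.99 ± 0.312 had an adjusted p of 0.147, or 0.0529 with the block, 0.0411 with a block for batch and 0.0277 in DESeq2. The sum of 11 other neuronal markers was 173, 206, 185 and 207 RPM in DMSO and 171, 145, 151 and 144 RPM in CompE libraries. It was lower in 4 of 4 pairs, though the pair of replicate 1 differed little. The part of neuronal RNA in these Tubb3 values was not tested. Tubb4b, the most abundant β-tubulin, was at 143, 129, 150 and 138.5 RPM in DMSO and 137, 150, 163 and 132 RPM in CompE libraries, a log2 fold change of 0.02 ± 0.113. Tubg1, the γ-tubulin that nucleates microtubules, stood at 31.7, 25.4, 20.3 and 22.9 RPM in DMSO and 25.7, 23.7, 23.4 and 19.8 RPM in CompE libraries and did not pass.

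All 4 keratins had negative log2 fold changes at P0, with a median of -0.60. Krt8 and Krt18 passed at 0.05 with the replicate block, and neither passed with a block for batch. Krt8, the type II partner of the pair, stood at 188.5, 164, 239 and 153 RPM in DMSO and at 106, 133, 156 and 110 RPM in CompE libraries. It was lower in 4 of 4 pairs, and the groups overlapped in CompE replicate 3. Its log2 fold change was -0.60 ± 0.186 with an adjusted p of 0.144, and -0.60 ± 0.106 with an adjusted p of 0.0129 with the block.

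Krt18, the type I partner, stood at 325, 240.5, 363 and 249 RPM in DMSO and at 156, 219, 229 and 185 RPM in CompE libraries. Every CompE library lay below every DMSO library, as in 4.76% of all genes tested. Its log2 fold change was -0.61 ± 0.182 with an adjusted p of 0.125, and -0.61 ± 0.146 with an adjusted p of 0.0439 with the block. Krt7, a simple-epithelium keratin of type II, stood at 14.6, 8.21, 7.56 and 10.7 RPM in DMSO and at 5.29, 6.54, 6.12 and 5.93 RPM in CompE libraries, with no overlap. The fitted log2 fold change was -0.80 ± 0.218 with an adjusted p of 0.0854 in edgeR, and Krt7 passed in DESeq2 with an adjusted p of 0.00783. Krt19 was below 12 RPM in every P0 library and did not pass.

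Of the type III and IV proteins, none passed at P0. Vim, the vimentin of mesenchymal and many immature cells, stood at 52.7, 95.9, 108 and 102 RPM in DMSO and at 86.9, 136, 143 and 115 RPM in CompE libraries. It was higher in 4 of 4 pairs, and the groups overlapped, with an adjusted p of 0.629, or 0.0572 with the block. Nefl and Nefm, the light and medium neurofilament subunits, and Nes, Synm and Des had means of 1.38 to 36.2 RPM with pairs in both directions. The sum of 9 mesenchyme markers was 959 to 1200 RPM in DMSO and 1240 to 1390 RPM in CompE libraries, and its part in the Vim values was not tested. The sum of 9 muscle and pericyte markers was 163 to 294 RPM in DMSO and 27.5 to 57.2 RPM in CompE libraries, without overlap. Nearly all of it was Pdgfrb, at 162 to 291 RPM in DMSO and 23.9 to 56.0 RPM in CompE libraries. Des, the filament of muscle, stood at 1.17, 0.125, 2.35 and 1.87 RPM in DMSO and at 1.03, 1.39, 3.44 and 2.34 RPM in CompE libraries, and the part of these markers in the members' values was not tested.

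Of the 33 members tested, 7 were higher in every P0 pair (21.2%, against 17.4% of all genes) and 4 were lower in every pair (12.1%, against 11.7%). Groups without overlap were found for 4 members (12.1%, against 9.88%). The HC marker sum was 982, 621, 841 and 1410 RPM in P0 DMSO and 2260, 1200, 1540 and 1700 RPM in P0 CompE libraries, higher in 4 of 4 pairs, and its part in the members' differences was not tested.

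**Figure D2:**
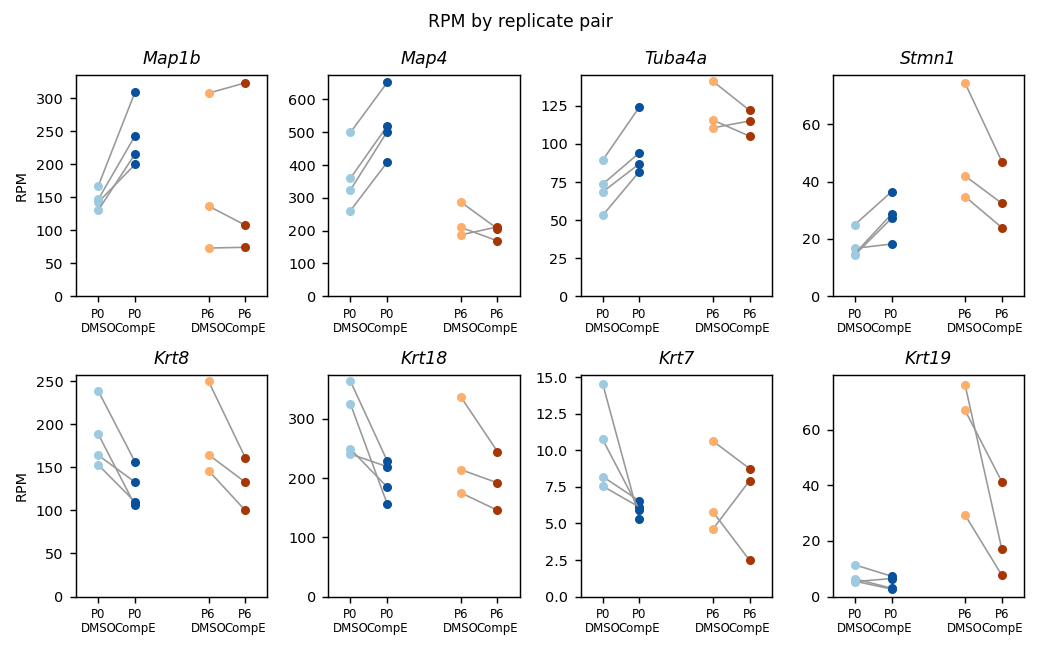
RPM of 8 members in each library, with a line joining the DMSO and CompE libraries of a replicate pair at each age. Map1b, Map4, Tuba4a and Stmn1 rise and Krt8, Krt18 and Krt7 fall along every P0 line, while at P6 the lines of Stmn1, Krt8, Krt18 and Krt19 fall in all 3 pairs.

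The same comparison was made at P6, when this capacity of SCs is known to have declined. Of the 33 members tested (Stmn4 was too low), 0 passed at an adjusted p of 0.01 with a 2-fold change or at 0.05 in edgeR, and the background was 0.0% of 15322 genes at both thresholds. DESeq2 also gave 0 members, where 0.0548% of genes passed the first threshold and 0.0758% the second. At an unadjusted p under 0.05 there was 1 member, Krt19, against 1.89% of all genes. The P6 libraries varied more, and the biological coefficient of variation shared by all genes was 46.7%, where P0 libraries had 27.2%.

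Krt19, a type I keratin without a tail domain, stood at 76.1, 29.3 and 67.0 RPM in P6 DMSO and at 17.0, 7.66 and 41.3 RPM in P6 CompE libraries. It was lower in 3 of 3 pairs, and the groups overlapped through replicate 3. In edgeR, the log2 fold change of -1.39 ± 0.59 had an adjusted p of 1.0, and it ranged from -2.18 to -0.98 when libraries were left out. Krt8 was at 250, 146 and 165 RPM in DMSO and 161, 100.0 and 133 RPM in CompE libraries, lower in 3 of 3 pairs. Krt18 was at 337, 175 and 214 RPM in DMSO and 245, 145.5 and 192 RPM in CompE libraries, also lower in 3 of 3 pairs. The log2 fold changes were -0.50 ± 0.246 for Krt8 and -0.31 ± 0.277 for Krt18.

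Lower values in every P6 pair were found for 8 members (24.2%, against 17.1% of all genes), namely Tuba1a, Tuba1c, Tubb2a, Tubb4b, Stmn1, Krt8, Krt18 and Krt19. Higher values in every pair were found for 2, Map2 and Mapt (6.06%, against 15.8%). In none of the 33 were the groups apart, against 7.19% of all genes. Tuba1a stood at 1451, 1309 and 761 RPM in DMSO and at 1193, 1128 and 694 RPM in CompE libraries. Tubb4b stood at 403, 403 and 315.5 RPM in DMSO and at 338, 328 and 272 RPM in CompE libraries. In both genes replicate 3 was the lowest library of its treatment.

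Map1b at P6 differed more between replicates than between treatments, with 73.0, 137 and 307.5 RPM in DMSO and 74.1, 108 and 323 RPM in CompE libraries. Replicate 3, the number with high mesenchyme markers, was also highest in both treatments for Nefl (64.0 and 52.4 RPM, others 11.6 to 21.9), Nefm (30.0 and 29.1 RPM, others 3.10 to 11.1), Des (12.2 and 9.14 RPM, others 0 to 2.40) and Nes (20.9 and 19.8 RPM, others 6.26 to 8.68). Neuronal markers (377 and 302 RPM, others 117 to 259) and HC markers (1070 and 1220 RPM, others 405 to 597) were also highest in replicate 3. The part of these 3 marker lists in the values was not tested. Vim did not share the pattern, at 105, 142 and 152 RPM in DMSO and 231, 154 and 127 RPM in CompE libraries. Map4 (210, 287 and 187 RPM in DMSO, 169, 206 and 212 RPM in CompE) and Tuba4a (141, 111 and 116 RPM in DMSO, 122, 115 and 105 RPM in CompE) had pairs in both directions.

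Whether the response differed between ages was tested as an interaction over all 14 libraries. No member passed at 0.05, where 2 of 17090 genes did (0.0117%), and none passed with a term for each pair, where 84 genes did (0.492%). DESeq2 gave 0 members. At an unadjusted p under 0.05 there were 2 members without pair terms, Tuba4a and Stmn1 (background 4.75%), and 5 with them (background 9.87%).

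Stmn1 was higher with CompE in every P0 pair and lower in every P6 pair, as were 1.71% of all genes. At P6 it stood at 42.0, 74.4 and 34.8 RPM in DMSO and at 32.5, 47.0 and 24.0 RPM in CompE libraries. Its response at P6 less that at P0 was -1.13 ± 0.446 on the log2 scale, with an adjusted p of 0.923, and -1.10 ± 0.217 with an adjusted p of 0.0795 with pair terms. For Map1b the difference was -0.70 ± 0.629, or -0.73 ± 0.149 with an adjusted p of 0.0875 with pair terms. For Map4 it was -0.69 ± 0.35, or -0.69 ± 0.169 with an adjusted p of 0.152, and for Krt8 0.11 ± 0.317, or 0.12 ± 0.152 with an adjusted p of 0.845.

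**Figure D3:**
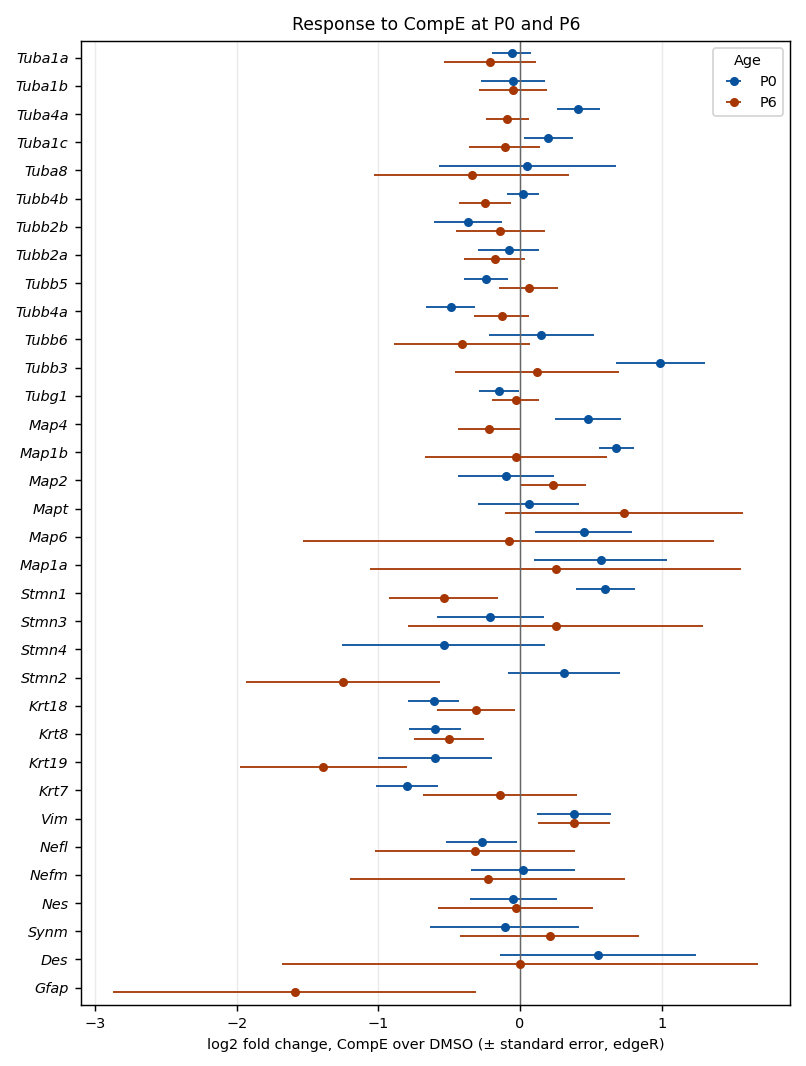
Log2 fold change of CompE over DMSO with its standard error (edgeR) for each member at P0 and P6, in the order of the plot of levels. Gfap has no P0 value and Stmn4 no P6 value, the 4 keratins lie left of 0 at both ages, and the P6 bars are longer for most members.

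Between ages, DMSO libraries were compared with each other. Of 34 members 6 were called, all higher at P6 (Tubb4b, Tubb3, Tuba1c, Stmn1, Krt19 and Gfap), where 7.13% of 17090 genes were called and 3.74% were called higher. At an adjusted p of 0.05, 11 were higher and 1 lower, against 11.8% and 10.7% of all genes. Between CompE libraries 4 members were called (Tubb4b, Tubb3 and Krt19 higher, Map4 lower), against a background of 6.43%. In DMSO libraries the median log2 fold change of the members was 0.37 against -0.05 over all genes, and the groups of 11 members did not overlap (32.4%, against 31.1% of all genes). Gfap had 10 or more counts in 6 P6 libraries and 2 P0 libraries, so it met the rule of 3 libraries only through P6, where it was high. Its place among the members higher at P6 was favoured by that rule, and the counts above include it. Stmn4 met the rule only through P0, with 8 P0 and 2 P6 libraries, and did not pass between ages.

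Tubb4b, a β-tubulin of ciliated and many other cells, was higher at P6 in every library. It stood at 403, 403 and 315.5 RPM in P6 DMSO libraries, against 129 to 150 RPM in the P0 DMSO libraries given above. Its log2 fold change was 1.49 ± 0.145 with an adjusted p of 1.3e-05, and CompE libraries gave 1.24 ± 0.145 with an adjusted p of 7.47e-05. Tubb2b, an isotype of immature neurons, moved the other way, with 105, 121, 198 and 164 RPM in P0 DMSO and 82.8, 90.5 and 51.4 RPM in P6 DMSO libraries. Its groups did not overlap, and the log2 fold change was -0.90 ± 0.303 with an adjusted p of 0.0466, while CompE libraries gave -0.66 with an adjusted p of 0.131. Tubb2b lost the threshold of 0.05 in 13 of 20 alternatives.

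The β-tubulin mix changed accordingly when taken as shares of summed RPKM. Tubb4b made up 28.0% ± 2.77 (SD, n = 4) in P0 DMSO and 47.7% ± 1.57 (n = 3) in P6 DMSO libraries. Tubb2b made up 26.2% ± 4.18 and 8.61% ± 1.62. The share of Tubb2a, at 25.5% ± 2.17 and 24.9% ± 2.41, differed by less than the spread. In CompE libraries the Tubb4b share was 31.6% ± 2.55 at P0 and 45.4% ± 3.11 at P6. The summed β-tubulin level was 241 ± 34.4 RPKM in P0 DMSO and 375 ± 44.8 RPKM in P6 DMSO libraries.

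**Figure D4:**
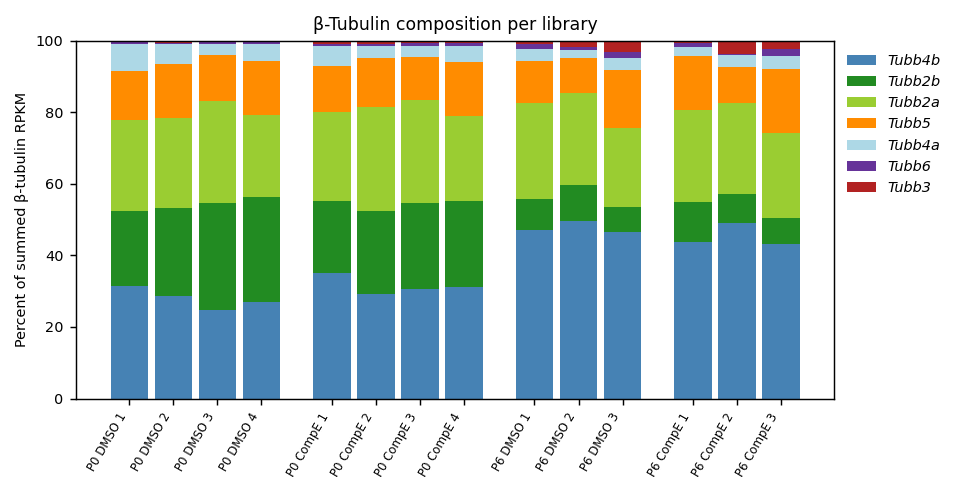
Share of each β-tubulin in the summed β-tubulin RPKM of every library, in percent, with libraries grouped by age and treatment. Tubb4b (bottom) takes 24.9 to 35.2% at P0 and 43.3 to 49.5% at P6, and Tubb2b above it takes 20.0 to 29.9% at P0 and 6.91 to 10.9% at P6.

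Tubb3 rose from the 0.953 to 2.18 RPM of P0 DMSO libraries to 6.42, 12.5 and 18.7 RPM in P6 DMSO libraries. In edgeR, the log2 fold change was 3.06 ± 0.475 with an adjusted p of 0.000587, and 2.20 with an adjusted p of 0.00435 in CompE libraries. Beside it, the summed level of the 11 other neuronal markers was 173 to 207 RPM in P0 DMSO and 174 to 377 RPM in P6 DMSO libraries. In the P6 DMSO libraries 6 to 8 of these markers had 10 or more counts, and Thy1 had 0 counts in 2 of the 3. The part of neuronal RNA in the Tubb3 value was not tested. Stmn2, a stathmin of neurons, passed at 0.05 with 3.34, 11.7 and 4.59 RPM in P6 DMSO libraries against 1.02 to 3.59 RPM at P0, and the groups overlapped. Stmn2 lost the threshold in 7 of 20 alternatives, and its CompE libraries gave a log2 fold change of 0.23 with an adjusted p of 0.804.

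Tuba1c, one of the near-identical α-tubulins, stood at 8.85, 11.2, 12.5 and 9.53 RPM in P0 DMSO and at 26.0, 15.7 and 22.7 RPM in P6 DMSO libraries. The log2 fold change was 1.08 ± 0.202 with an adjusted p of 0.002, and 0.80 with an adjusted p of 0.0127 in CompE libraries. Tuba4a rose by 0.86 ± 0.158 (adjusted p 0.00176) without reaching 2-fold, and Tuba8 rose by 2.20 ± 0.709 from under 1 RPM on average (adjusted p 0.0391). Tubb6, with 11.9 RPM on average at P6, had a log2 fold change of 1.83 ± 0.446. Its adjusted p was 0.01 after rounding and just missed the call. In CompE libraries the Tubb6 groups overlapped, with a log2 fold change of 1.28 and an adjusted p of 0.0531. Tubg1 had a log2 fold change of 0.45 ± 0.146 with an adjusted p of 0.0406. Tuba8 and Tubg1 each lost the threshold of 0.05 in 10 of 20 alternatives, and in CompE libraries Tuba4a had a log2 fold change of 0.38 with an adjusted p of 0.0997.

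Stmn1 rose from the 14.5 to 25.0 RPM of P0 DMSO libraries to 34.8 to 74.4 RPM in P6 DMSO libraries, a log2 fold change of 1.61 ± 0.314 with an adjusted p of 0.00275. In CompE libraries the difference was 0.48 ± 0.313 with an adjusted p of 0.293. The difference between these age effects is the interaction given above, which did not pass. Stmn1 is also known from dividing cells, and the sum of 12 markers of dividing cells was 7.68 to 24.8 RPM in P0 DMSO and 4.80 to 13.4 RPM in P6 DMSO libraries. The part of dividing cells in the Stmn1 values was not tested.

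Krt19 stood at 6.39, 5.36, 11.4 and 5.52 RPM in P0 DMSO libraries, well under its P6 DMSO values of 29.3 to 76.1 RPM. Its log2 fold change was 3.05 ± 0.531 with an adjusted p of 0.00127, and 2.28 with an adjusted p of 0.00763 in CompE libraries. Krt8 (0.07 ± 0.224) and Krt18 (-0.21 ± 0.238) did not pass, and their P6 and P0 libraries overlapped. Gfap, the filament of glia and of some SCs, was called from low values, with 0.0635 to 0.427 RPM at P0 and 15.5, 0.612 and 1.12 RPM at P6. The fitted log2 fold change of 4.53 ± 1.1 (adjusted p 0.00954) fell to 1.82 with an adjusted p of 0.16 without P6 DMSO replicate 1. The call at 0.01 was also lost without any single P0 library, with adjusted p from 0.0117 to 0.0289, and without P6 CompE replicate 1 (0.0123). Summed markers of Schwann and satellite glia were 460 to 600 RPM in P0 DMSO and 572 to 688 RPM in P6 DMSO libraries, and their part in the Gfap values was not tested.

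The MAPs Map2 and Map4 differed between ages in opposite directions. Map2 had 112.6, 144 and 182 RPM in P6 DMSO against 37.6 to 99.1 RPM in P0 DMSO libraries, with no overlap, and its log2 fold change was 0.96 ± 0.339 with an adjusted p of 0.0554. In CompE libraries it was 1.32 with an adjusted p of 0.0138. Map4 was at 187 to 287 RPM in P6 DMSO and 261 to 500 RPM in P0 DMSO libraries, and these groups overlapped. Its log2 fold change was -0.59 ± 0.25 with an adjusted p of 0.105. In CompE libraries the Map4 groups did not overlap, and the log2 fold change was -1.28 with an adjusted p of 0.00326.

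**Figure D5:**
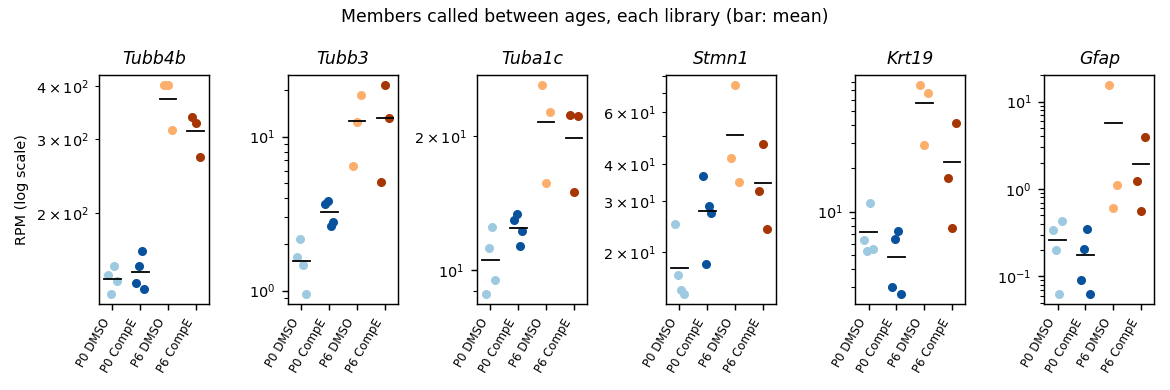
RPM (log axis, own scale per gene) of the 6 members called between ages, with a point for each library and a bar at the group mean. For Tubb4b, Tubb3, Tuba1c and Krt19 every P6 point lies above every P0 point of its treatment, and for Gfap 1 P6 DMSO library is at 15.5 RPM.

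The 92 other genes of both systems, listed by role, give the setting for these members. Of the 79 tested at P0, 0 were called, against 1.22% of all genes. At an adjusted p of 0.05, 2 were higher and 3 lower, against 1.29% and 2.59% of all genes. With the block 6 were higher and 4 lower, against 2.96% and 4.54%. The median log2 fold change was -0.01. Dclk1, a doublecortin-like kinase that binds and stabilizes microtubules, was called with the block, as were 2.2% of all genes. It stood at 315, 709, 398 and 585 RPM in P0 DMSO and at 119, 205, 164 and 186 RPM in P0 CompE libraries, without overlap. In edgeR, the log2 fold change was -1.62 ± 0.29 with an adjusted p of 0.0133, and -1.57 ± 0.109 with an adjusted p of 0.00015 with the block. At P6 its libraries were at 210, 207 and 325 RPM in DMSO and 175, 260 and 305 RPM in CompE, and the response at P6 less that at P0 was 1.64 ± 0.428 with an adjusted p of 0.484, and 1.59 ± 0.18 with an adjusted p of 0.00844 with pair terms.

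The other 4 genes that passed at P0, named here after their values were seen, were Lmna, a nuclear lamin (67.2 RPM in DMSO, 96.0 in CompE, adjusted p 0.0476), Pkp3, a desmosomal plakophilin that links keratins to junctions (52.7 and 37.0 RPM, adjusted p 0.0282), and the keratins Krt17 (6.01 and 1.48 RPM, adjusted p 0.0212) and Krt80 (0.749 and 4.64 RPM, adjusted p 0.035). At P6, 0 of 78 passed with CompE. Between ages in DMSO libraries 3 of 83 were called, all lower at P6, where 3.38% of all genes were called lower. These were Mzt1, a subunit of γ-tubulin complexes (305 RPM at P0 and 124 RPM at P6, log2 fold change -1.20 ± 0.238), Map7d2, a microtubule-binding protein (20.2 and 7.13 RPM, -1.43 ± 0.285), and the centriolar ε-tubulin Tube1 at under 9 RPM. At an adjusted p of 0.05, 6 of the 83 were higher and 9 lower, against 11.8% and 10.7% of all genes. The median log2 fold change of the 83 was -0.09.

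Promoters (250 bases before to 50 after the start, RefSeq, GRCm38) were found for 23 of the 34 members. The RBPJ core TGGGAA, searched on both strands, was present for Gfap, Krt8 and Tubb4b, and in 25.6% of 32851 promoters overall. The E-box CAGCTG was present for Des, Krt8, Map4 and Tuba1b, and in 16.3% of all promoters. A match describes letters in a window and not a bound site.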

How the data were processed

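The authors deposited 2 tables of read counts per gene, 1 for each age, as whole numbers that had not been normalized. Per the labels and methods, polyadenylated RNA of sorted cells was amplified as full-length cDNA without molecular identifiers, reads were trimmed with Trim Galore 0.6.0 and cutadapt 1.15 and aligned with STAR to mm10 (GRCm38). The labels name STAR 2.7.0f, and the methods name another version. The annotation release, the use of strand and the handling of reads with several matches were not given in the sources used here. The tables held 0 columns that were left unused.

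Counts were divided by the library total over genes to give RPM, and by merged exon length (GENCODE, GRCm38) to give RPKM. Genes were filtered with a minimum count of 10, scaled by TMM and tested with the quasi-likelihood test of edgeR 4.0.16 in R 4.3.3, two-sided, with Benjamini-Hochberg adjustment over all genes tested. Each age was fitted alone for treatment, and all 14 libraries together for age and interaction. Calls needed an adjusted p of at most 0.01 and a 2-fold change, and the threshold of 0.05 without a fold was used as a second rule. The fits without a block were tested on simulated data. Those data held no replicate pairs or batches, so the fits with a block were not tested in this way.

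Groups and replicate numbers came from the labels. Same-numbered libraries of an age deviated together from their group means, with correlations of 0.162 to 0.5 at P0 and 0.264 to 0.62 at P6. Each CompE library correlated best with the DMSO library of its own number. The numbers were therefore taken to pair libraries within an age. Alternatives were DESeq2 1.42.0, its size factors, other filters on low counts, other sets of libraries, replicate and batch blocks, the longest transcript as length, and each library left out. Members with an adjusted p of at most 0.05 for treatment or interaction, with or without the block, members called between ages with at least 10 RPM, and the most abundant member of each role were described in full. Other pathway genes were named where called with at least 10 RPM. The members, the lists of pathway and marker genes and the tests were chosen with earlier results of these data known. Totals per library were 19415066 to 44430063 counts, and intervals of counting error are narrower than the spread between libraries. Some sequences of members are not reported here.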

Additional observations from a re-analysis of the deposited data

Results flagged for a closer look

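In 3 of 68 member groups of 4 libraries, 1 library lay far from the others, where chance gives about 1 in 20 groups, or 3.4. Tubb2a was at 132 RPM in P0 DMSO replicate 3 and at 86.2 to 90.9 RPM in the other P0 DMSO libraries. Stmn3 was at 7.02 RPM in P0 CompE replicate 1 and at 3.50 to 3.86 RPM in the others. Nefl was at 46.6 RPM in P0 CompE replicate 1 and at 25.8 to 26.2 RPM in the others. Groups of 3 libraries were not examined in this way.

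The response of Stmn1 to CompE had opposite signs at the 2 ages, higher in 4 of 4 P0 pairs and lower in 3 of 3 P6 pairs. The response at P6 less that at P0 was -1.13 on the log2 scale, and this difference did not pass the interaction test, with an adjusted p of 0.923 (edgeR).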

How the results depend on the processing

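At P0 the number of members at an adjusted p of at most 0.05 was 1, and it became 4 with DESeq2, 5 with the replicate block, 4 with a block for batch and 0 with all 14 libraries in one fit, and it ranged from 0 to 1 when libraries were left out. The number called at 0.01 with a 2-fold change was 0, and 1 under the rule of 0.05 without a fold. At P6 and for the interaction the counts were 0 under every alternative run, the replicate block included. Between ages in DMSO libraries 6 members were called, 12 under the rule of 0.05 without a fold, and 4 to 9 over the other alternatives. Replicate numbers recur at both ages but name different batches there, so a replicate block over them pairs no libraries across the ages. That block gave 7 calls, with Map2 (log2 fold change 1.06, adjusted p 0.00322) and Tubb6 added and Gfap lost, and its p-values come from no paired comparison. The fold changes of Map1b, Map4, Tuba4a, Krt7, Krt8 and Krt18 at P0, of Krt19 at P6, of Tubb4b, Tubb3, Tuba1c, Stmn1 and Krt19 between ages and of Stmn1 in the interaction kept their direction in every alternative run. Of the other members in each comparison, Tuba1a (2 of 19 alternatives at P0), Tubb4b (5 of 19 at P0), Tubg1 (3 of 15 at P6) and Vim (1 of 15 at P6) among them, 13 of 27 at P0, 24 of 32 at P6, 17 of 33 in the interaction and 9 of 29 between ages changed sign in at least 1 alternative. With the longest transcript as length, Map4 stood at 59.3 RPKM in P0 DMSO libraries and Stmn1 at 16.8, and the order within roles was the same. The order across roles was not the same, and Map4, at 23.9 RPKM with merged exons, moved up past Tubb5 and Tuba1b. Low members such as Gfap, Stmn4, Map1a and Map6 are limited by counting error.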
